A study of Rattus norvegicus with 6 samples.

Results

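Neuropeptide precursor genes of the spinal cord are described here, 10 genes chosen by name for the peptides of primary afferents and the dorsal horn. They are Penk, Pdyn, Calca, Calcb, Tac1, Sst, Npy, Cck, Nts and Adcyap1, and all 10 were found among the 32623 genes of the gene table, with 15 of the 40808 transcripts of the transcript table. RNA came from spinal cord of female Wistar rats aged 8 weeks. In the ES group the injured animals had electrical stimulation, and in the SCI group they were injured and had none, with 3 libraries each. All animals carried the injury and there was no uninjured group. The labels used here give neither the site and timing of injury and stimulation nor whether each library is 1 rat. Each p-value thus reflects the variation among these libraries alone, which may be technical in part or whole and may leave out variation between rats.

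Neuropeptides are cut from larger precursor proteins, stored in dense-core vesicles and released beside the fast transmitters. In the cord, CGRP and substance P are carried by many pain- and heat-sensing afferents, whose cell bodies lie outside the cord in the dorsal root ganglia. Enkephalin, dynorphin, somatostatin, neuropeptide Y, cholecystokinin and neurotensin are made by sets of dorsal horn neurons, and CGRP also by motor neurons. In bulk RNA, fewer cells of a type and less RNA per cell cannot be told apart.

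The values are FPKM, fragments per kilobase of gene scaled to library size. The smallest steps in the transcript values, taken as 1 read pair, gave an estimated depth of 14000000 to 16200000 read pairs in ES and 16400000 to 18700000 in SCI. On that estimate the 10 genes had between 49 and 911 read pairs per library, from Nts in SCI replicate 1 to Penk in ES replicate 3. Counting error alone then gives a coefficient of variation of 14.3% and 3.31% at these ends. The spread among libraries could be smaller than that error. In SCI Pdyn varied by 2.17% and Npy by 2.97%, where counting alone gives 9.90% and 10.1% at their fewest read pairs. Cck varied by 25.1% in SCI, against 12.9% from counting. Differences were tested with limma on log2(FPKM + 1) over the 15750 genes with a mean of at least 0.5 FPKM, and a gene was called at a Benjamini-Hochberg adjusted p under 0.05. Fold values are ratios of mean FPKM, and log2 fold changes are ES minus SCI of log2(FPKM + 1), a scale on which low genes change by less than their fold.

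Of the 10 precursor genes 8 rose with stimulation, none fell, and Cck and Adcyap1 did not pass the test. Over all genes tested 17.4% were called higher in ES, 27.6% were called lower, and 45.0% were called in either direction. All 8 also had every ES library above every SCI library, which held for 21.9% of all genes. The median log2 fold change of the 10 was 0.52, against -0.06 over all genes. Of all called genes 38.8% were higher in ES, a share that was 51.2% under quantile normalization, 57.5% after median centring and 27.0% with equal totals, while all 8 peptide genes stayed called under these. The 10 genes together summed to 114, 119.8 and 121 FPKM in ES replicates 1 to 3, against 71.6, 68.4 and 65.6 FPKM in SCI replicates 1 to 3. A list of 14 pan-neuronal genes, made by neurons of all kinds, was also higher in ES, and centring each library on their median took the call from 5 of the 8. With that centring 6.05% of all called genes were higher in ES, and 7827 of the 15750 genes tested were called lower.

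**Figure D1:**
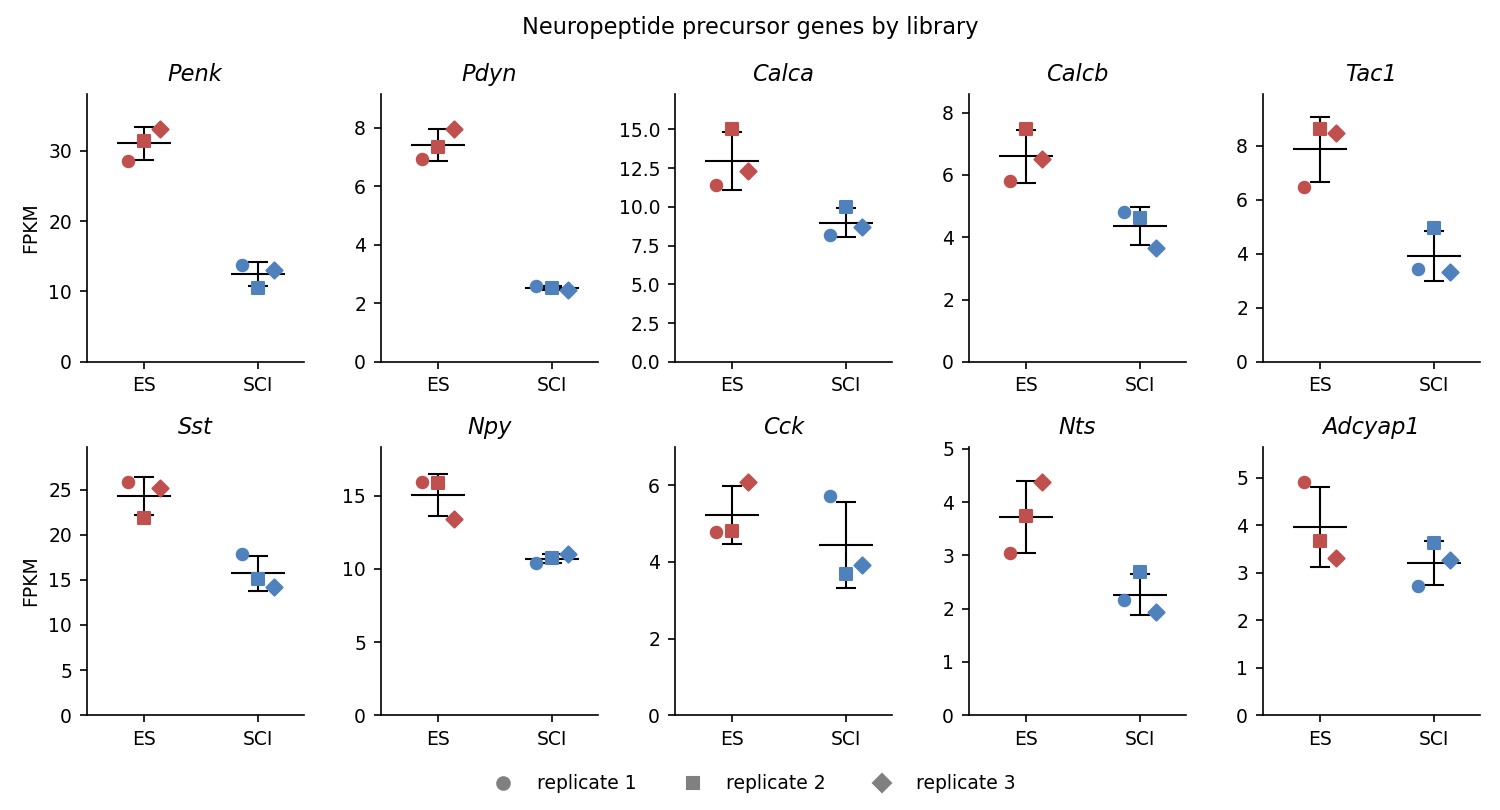
FPKM of the 10 precursor genes in each library, with ES left of SCI in every panel, 1 symbol per replicate, and the mean and SD of 3 libraries as bars. The groups do not overlap for 8 genes, while ES and SCI libraries overlap for Cck and Adcyap1.

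The opioid precursor genes had the largest folds of the 10. Penk, which encodes proenkephalin, the source of the enkephalins, lies on chromosome 5 from 17056419 to 17061837 on the minus strand in the files' coordinates. It had 28.5, 31.4 and 33.1 FPKM in ES replicates 1 to 3, against 13.7, 10.5 and 13.1 FPKM in SCI replicates 1 to 3. The lowest ES library was thus above every SCI library by more than the spread of either group. Penk averaged 31.0 ± 2.31 FPKM in ES and 12.4 ± 1.72 FPKM in SCI (SD, n = 3 each), 2.49-fold higher, with a log2 fold change of 1.26 ± 0.10 (SE, adjusted p = 0.000158). Its 3-exon transcript of 1348 bases held 98.9% of the gene's transcript FPKM in ES and 99.2% in SCI, and rose with a log2 fold change of 1.27 ± 0.11 (adjusted p = 0.000637).

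Pdyn, on chromosome 3 from 122194329 to 122206671, encodes prodynorphin, the source of the dynorphins, which act mainly on the kappa opioid receptor. It had 6.92, 7.34 and 7.98 FPKM in ES replicates 1 to 3, against 2.58, 2.53 and 2.47 FPKM in SCI replicates 1 to 3. The SCI libraries lay close together, and the ES libraries were all far above them. The means were 7.41 ± 0.531 FPKM in ES and 2.53 ± 0.0549 FPKM in SCI, 2.93-fold higher, with a log2 fold change of 1.25 ± 0.07 (adjusted p = 2.49e-05). The ratio of Penk to Pdyn was 4.18 ± 0.0775 in ES and 4.92 ± 0.670 in SCI. Centred on the pan-neuronal genes, Penk and Pdyn both kept a log2 fold change of 0.98 (adjusted p = 7.32e-05 and 0.000124). In the authors' deposited table Penk, Pdyn and Tac1 were marked as significant, as were 3.15% of all genes in that table. The authors' deposited table also gave q-values of 0.00302 for Sst, 0.0125 for Calca, 0.0264 for Nts, 0.0297 for Npy and 0.0338 for Calcb, which it left unmarked and lists with folds of 1.41 to 1.64. Of the 15 member transcripts the authors' deposited table marked 3, those of Penk and Pdyn and the 978-base Tac1 transcript, the last with a q-value of 0.337, beside 2.85% of all transcripts.

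Promoter sequences are shown for 4 of the 8 genes that rose, chosen for the motifs they hold, from RefSeq on build GRCr8, 250 bases before to 50 after the annotated start. They came by symbol for 7 of the 10 genes, with no entry for Penk, Calcb and Cck. Capitals mark what a search found on both strands, namely the cyclic AMP response element TGACGTCA, the sequence TGACGCA or its reverse complement TGCGTCA, and the AP-1 motif TGANTCA, and on the given strand the TATA motif TATAAA. Among all 33469 promoters 1.83% held the first, 1.9% the second, 7.33% the AP-1 motif and 8.8% the TATA motif. A match describes letters only. The Pdyn window (chr3:137366454-137366753, minus strand) held TATAAA and none of the other 3. The Sst window (chr11:90461296-90461595, plus strand) held the cyclic AMP response element. The Calca window (chr1:178317480-178317779, minus strand) and the Tac1 window (chr4:36645333-36645632, plus strand) held the second motif, in opposite orientation. Of the other 3 windows, Nts held an AP-1 motif, Adcyap1 held TATAAA, and Npy held none of the 4.
Pdyn: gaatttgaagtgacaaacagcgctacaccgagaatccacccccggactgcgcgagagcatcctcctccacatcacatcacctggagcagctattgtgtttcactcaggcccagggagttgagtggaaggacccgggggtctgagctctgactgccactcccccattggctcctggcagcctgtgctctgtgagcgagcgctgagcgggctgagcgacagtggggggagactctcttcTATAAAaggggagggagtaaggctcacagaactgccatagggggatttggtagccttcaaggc
Sst: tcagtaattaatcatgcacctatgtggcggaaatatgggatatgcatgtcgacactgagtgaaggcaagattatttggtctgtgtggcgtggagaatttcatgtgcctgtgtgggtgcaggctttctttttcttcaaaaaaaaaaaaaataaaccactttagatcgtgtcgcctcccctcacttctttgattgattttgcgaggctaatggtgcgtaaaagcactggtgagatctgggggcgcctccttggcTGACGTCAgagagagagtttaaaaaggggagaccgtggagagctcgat
Calca: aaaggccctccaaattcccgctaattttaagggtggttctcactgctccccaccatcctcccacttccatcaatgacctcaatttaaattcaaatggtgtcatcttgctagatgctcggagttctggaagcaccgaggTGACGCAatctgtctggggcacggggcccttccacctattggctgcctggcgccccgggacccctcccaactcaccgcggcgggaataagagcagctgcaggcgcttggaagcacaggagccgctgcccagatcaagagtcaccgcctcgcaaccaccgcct
Tac1: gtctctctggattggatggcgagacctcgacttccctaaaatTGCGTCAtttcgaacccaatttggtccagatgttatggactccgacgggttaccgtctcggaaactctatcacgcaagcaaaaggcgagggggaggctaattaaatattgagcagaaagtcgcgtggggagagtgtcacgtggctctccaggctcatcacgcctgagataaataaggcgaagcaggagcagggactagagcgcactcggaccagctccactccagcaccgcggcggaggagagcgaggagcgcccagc

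The genes of CGRP and substance P, peptides of primary afferents, rose, Calca and Calcb by smaller folds than Tac1. Calca, on chromosome 1 from 184184020 to 184188911 on the minus strand, encodes calcitonin and alpha-CGRP, a vasodilator peptide of afferents and motor neurons. It had 11.4, 15.1 and 12.3 FPKM in ES replicates 1 to 3, against 8.18, 9.9996 and 8.74 FPKM in SCI replicates 1 to 3. The groups did not overlap, although ES replicate 1 was only slightly above SCI replicate 2. The fold was 1.44 (log2 fold change 0.48 ± 0.11, adjusted p = 0.0129), and 0.20 with an adjusted p of 0.208 when centred on the pan-neuronal genes.

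Calcb, which encodes beta-CGRP, starts 82678 bases past the end of Calca on the plus strand. It had 5.80, 7.49 and 6.52 FPKM in ES replicates 1 to 3, against 4.80, 4.61 and 3.66 FPKM in SCI replicates 1 to 3. All ES libraries were above the SCI libraries, 1.51-fold in the mean (log2 fold change 0.51 ± 0.12, adjusted p = 0.0123; centred on the pan-neuronal genes 0.23, adjusted p = 0.194). Calca stood 1.96 ± 0.0603 times as high as Calcb in ES and 2.09 ± 0.348 times in SCI. The genes are close paralogs, so the division of reads between them is uncertain.

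The Calca locus is known for alternative splicing into a calcitonin and a CGRP messenger. The files hold a 5-exon transcript of 974 bases, which runs 2021 bases further at its 3′ end than a 4-exon transcript of 666 bases, and do not name the products. The 4-exon transcript had 3.20, 3.95 and 2.89 FPKM in ES replicates 1 to 3, against 0.833, 2.32 and 0.917 FPKM in SCI replicates 1 to 3, with SCI replicate 2 standing apart from the other SCI libraries (log2 fold change 0.93 ± 0.26, adjusted p = 0.0405). The 5-exon transcript had 13.2, 17.5 and 14.6 FPKM in ES replicates 1 to 3, against 10.4, 11.8 and 11.1 FPKM in SCI replicates 1 to 3 (log2 fold change 0.40 ± 0.11, adjusted p = 0.0374). Both calls were lost without any 1 of 5 of the 6 libraries. The 4-exon transcript took 18.2% ± 1.5 of the gene's transcript FPKM in ES and 10.5% ± 5.14 in SCI (exact permutation p = 0.1, two-sided, the smallest that 3 against 3 allows). The usage test (diffSplice, Simes p) did not pass (adjusted p = 0.287), while 13.3% of 2589 genes did. Without SCI replicate 2 the adjusted p was 0.0389.

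Tac1, on chromosome 4 from 33638709 to 33646819 on the plus strand, encodes substance P and neurokinin A, excitatory peptides of nociceptive afferents and dorsal horn neurons. It had 6.47, 8.63 and 8.47 FPKM in ES replicates 1 to 3, against 3.45, 4.96 and 3.33 FPKM in SCI replicates 1 to 3. Replicate 1 was the low library in ES and replicate 2 the high one in SCI, and the groups did not overlap. The fold was 2.01 (log2 fold change 0.86 ± 0.16, adjusted p = 0.00485), and the call held when centred on the pan-neuronal genes (0.58, adjusted p = 0.0145).

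Tac1 is spliced into alpha, beta and gamma forms, of which the beta form holds all exons. The 7-exon transcript of 1178 bases had 1.55, 2.76 and 1.86 FPKM in ES replicates 1 to 3, against 0.367, 1.01 and 0.869 FPKM in SCI replicates 1 to 3 (adjusted p = 0.0377). The commonest transcript had 6 exons and 987 bases. It took 62.5% ± 7.32 of the gene's transcript FPKM in ES and 77.8% ± 11.3 in SCI (exact permutation p = 0.1, two-sided). Its own level overlapped between groups, at 4.02 to 6.60 FPKM in ES and 2.66 to 4.18 FPKM in SCI (adjusted p = 0.0997). The other 6-exon transcript, 9 bases shorter, spread from 0.588 to 1.87 FPKM in ES and from 0.00881 to 0.538 FPKM in SCI (adjusted p = 0.0755). The usage test of Tac1 gave an adjusted p of 0.822. Over the 13 member transcripts tested, 9 were called, all higher in ES, beside 12.8% of 19223 transcripts called higher and 32.3% called in either direction. That count was 4 to 8 when 1 library was left out, and the 7-exon Tac1 transcript lost its call without any 1 of the 6 libraries. Calcb, Pdyn, Npy, Sst and Nts have only 1 transcript each, with the same FPKM as the gene, so their transcript calls repeat the gene results.

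**Figure D2:**
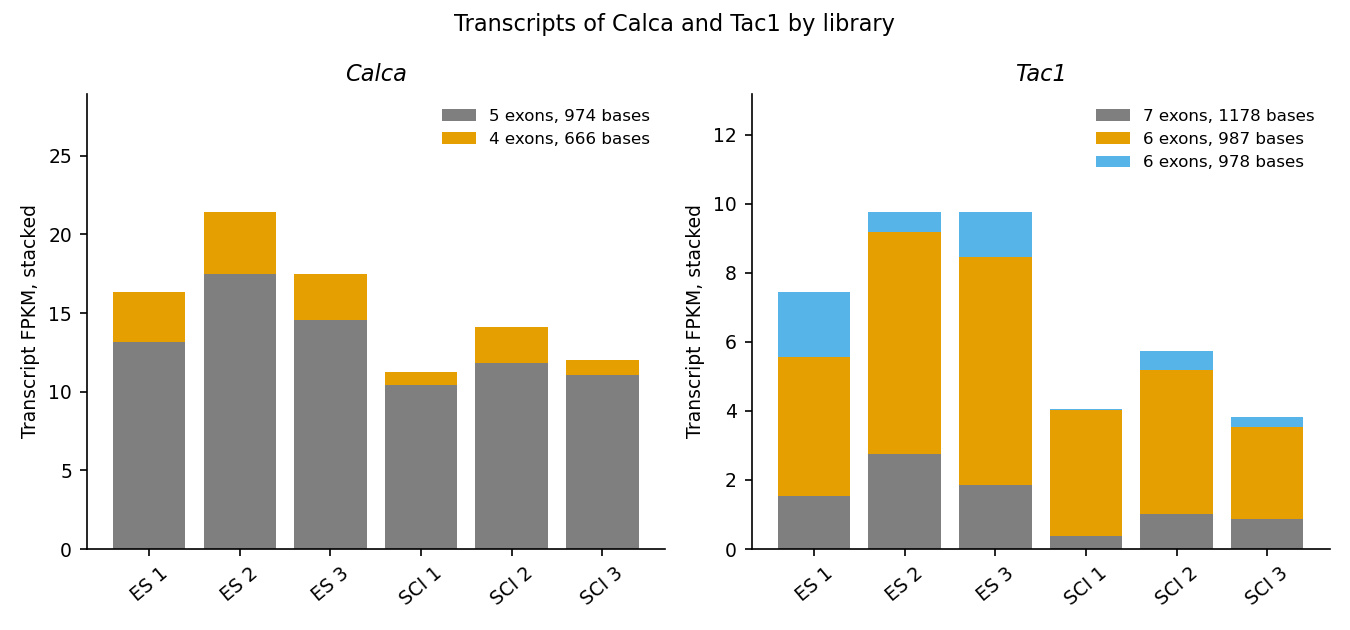
Stacked FPKM of the transcripts of Calca (left) and Tac1 (right) in each library, ES libraries left of SCI libraries, coloured by exon number and length. The 4-exon Calca transcript reaches 2.89 to 3.95 FPKM in ES and 0.833 to 2.32 FPKM in SCI, and the total height of both genes is greater in ES.

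Among peptides of dorsal horn interneurons, Sst and Npy rose. Sst, on chromosome 11 from 80358211 to 80359444, encodes somatostatin, an inhibitory peptide that marks a set of excitatory dorsal horn neurons. It had 25.9, 21.8 and 25.1 FPKM in ES replicates 1 to 3, against 17.9, 15.1 and 14.2 FPKM in SCI replicates 1 to 3. Every ES library exceeded every SCI library, and the spread was alike in both groups. The fold was 1.55 (log2 fold change 0.60 ± 0.10, adjusted p = 0.00307), and 0.32 with an adjusted p of 0.0519 when centred on the pan-neuronal genes.

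Npy, on chromosome 4 from 79573998 to 79581208, encodes neuropeptide Y, which in the dorsal horn is made by a set of inhibitory neurons. It had 16.0, 15.9 and 13.4 FPKM in ES replicates 1 to 3, against 10.4, 10.7 and 11.0 FPKM in SCI replicates 1 to 3. The SCI libraries varied by 2.97% and the ES libraries by 9.52%, with ES replicate 3 the lowest of its group. The fold was 1.41 (log2 fold change 0.45 ± 0.07, adjusted p = 0.00263), and 0.18 with an adjusted p of 0.160 when centred on the pan-neuronal genes.

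The 3 remaining precursors were low and gave the weakest results. Nts, on chromosome 7, encodes neurotensin, a peptide of superficial dorsal horn neurons. It had 3.04, 3.75 and 4.38 FPKM in ES replicates 1 to 3, against 2.17, 2.68 and 1.94 FPKM in SCI replicates 1 to 3, so that the groups were narrowly apart. The fold was 1.64 (log2 fold change 0.53 ± 0.13, adjusted p = 0.0179). The call was lost without ES replicate 2, ES replicate 3, SCI replicate 1 or SCI replicate 3 (adjusted p from 0.0524 to 0.0553), and when centred on the pan-neuronal genes (0.25, adjusted p = 0.239).

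Cck, on chromosome 8, encodes cholecystokinin, a peptide of excitatory dorsal horn neurons. It had 4.77, 4.81 and 6.09 FPKM in ES replicates 1 to 3, against 5.72, 3.68 and 3.92 FPKM in SCI replicates 1 to 3. SCI replicate 1 lay within the ES range and apart from the other SCI libraries. The log2 fold change was 0.21 with a 95% interval of -0.17 to 0.58 (adjusted p = 0.324). Without SCI replicate 1 it was 0.37 (adjusted p = 0.0487).

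Adcyap1, on chromosome 9, encodes PACAP, a peptide of afferents and autonomic neurons. It had 4.92, 3.67 and 3.32 FPKM in ES replicates 1 to 3, against 2.72, 3.62 and 3.28 FPKM in SCI replicates 1 to 3. ES replicates 2 and 3 were level with the SCI libraries. The log2 fold change was 0.23 with a 95% interval of -0.10 to 0.57 (adjusted p = 0.221). The 6-exon transcript of the gene was listed at 0 in all 6 libraries. Centred on the pan-neuronal genes, Cck and Adcyap1 turned to -0.07 and -0.04.

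**Figure D3:**
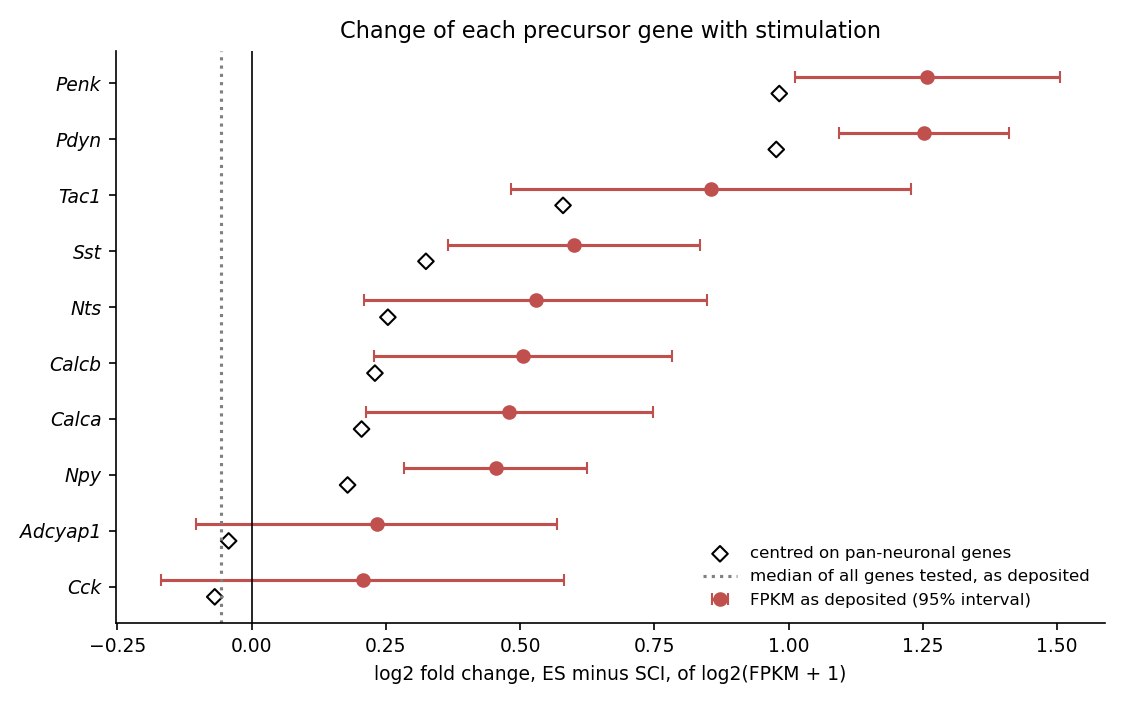
Log2 fold change of each precursor gene on the log2(FPKM + 1) scale, ES minus SCI, with 95% intervals from limma (filled circles) and after centring on the median of the pan-neuronal genes (open diamonds). The dotted line is the median of all genes tested, -0.06. Penk, Pdyn and Tac1 lie farthest to the right on both scales, and the intervals of Cck and Adcyap1 cross 0.

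The order of the levels is given in gene FPKM. In ES Penk was first and Sst second, with no overlap between them, followed by Npy and Calca, which overlapped. In SCI Sst was first at 15.7 FPKM, apart from Penk at 12.4 FPKM, and Penk overlapped Npy at 10.7 FPKM. That order at the top of SCI holds in gene FPKM only. Summed over transcripts Penk came to 39.1 FPKM in ES and 15.7 FPKM in SCI, level with Sst in SCI, and its 3-exon transcript alone, at 17.1, 13.1 and 16.5 FPKM in SCI replicates 1 to 3, overlapped Sst. The ratio of Penk to Sst in gene FPKM was 1.10, 1.44 and 1.32 in ES replicates 1 to 3, against 0.768, 0.695 and 0.924 in SCI replicates 1 to 3. Pdyn was sixth of the 10 in ES and ninth in SCI. Tac1, Pdyn, Calcb, Cck, Adcyap1 and Nts formed a lower tier in ES, between 3.72 and 7.85 FPKM in the mean, where each neighbour in the order overlapped the next. Summed over transcripts Calca came to 18.4 FPKM in ES and 12.5 FPKM in SCI, also above its gene-level values. The places of Penk and Calca in the order therefore depend on how transcripts were combined into gene values.

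No single library was high for all peptides. Calca, Calcb and Tac1 were highest within ES in replicate 2, Penk, Pdyn, Cck and Nts in replicate 3, and Sst, Npy and Adcyap1 in replicate 1. ES replicate 1 was the lowest ES library for 7 of the 10 genes. Within SCI replicate 1 was highest for 5 genes and replicate 3 lowest for 5.

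Other precursor genes moved in both directions. Of the 19 found, 14 were tested, 5 rose and 2 fell, beside 17.4% and 27.6% of all genes. Their median log2 fold change was 0.10. Trh, which encodes thyrotropin-releasing hormone, had 17.9, 17.0 and 18.6 FPKM in ES replicates 1 to 3, against 5.15, 5.58 and 5.83 FPKM in SCI replicates 1 to 3. These ES libraries were all far above the SCI ones, a 3.23-fold difference (log2 fold change 1.53, adjusted p = 6.72e-06). Pnoc, which encodes the precursor of nociceptin and belongs to the opioid precursor family, moved opposite to Penk and Pdyn. It had 5.07, 5.34 and 4.60 FPKM in ES replicates 1 to 3, against 14.3, 15.7 and 15.0 FPKM in SCI replicates 1 to 3. Every ES library was far below the SCI libraries (log2 fold change -1.42, adjusted p = 1.46e-05). Pomc, the source of beta-endorphin, also fell, at 1.06 ± 0.160 FPKM in ES and 2.40 ± 0.436 FPKM in SCI (log2 fold change -0.72, adjusted p = 0.00320).

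The genes of neurokinin B, galanin, VIP and corticotropin-releasing hormone were the others that rose. Tac3, of the tachykinin family with Tac1, stood at 6.43 ± 0.747 FPKM in ES and 3.28 ± 0.782 FPKM in SCI, 1.96-fold (adjusted p = 0.00404). Gal, a peptide gene induced in neurons by nerve injury, stood at 12.6 ± 0.739 FPKM in ES and 7.63 ± 2.01 FPKM in SCI. Vip stood at 3.05 ± 0.0660 FPKM in ES and 1.58 ± 0.163 FPKM in SCI, and Crh at 1.69 ± 0.450 FPKM in ES and 0.717 ± 0.113 FPKM in SCI. Gal and Crh lost their call when centred on the pan-neuronal genes (adjusted p = 0.0625 and 0.0807).

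**Figure D4:**
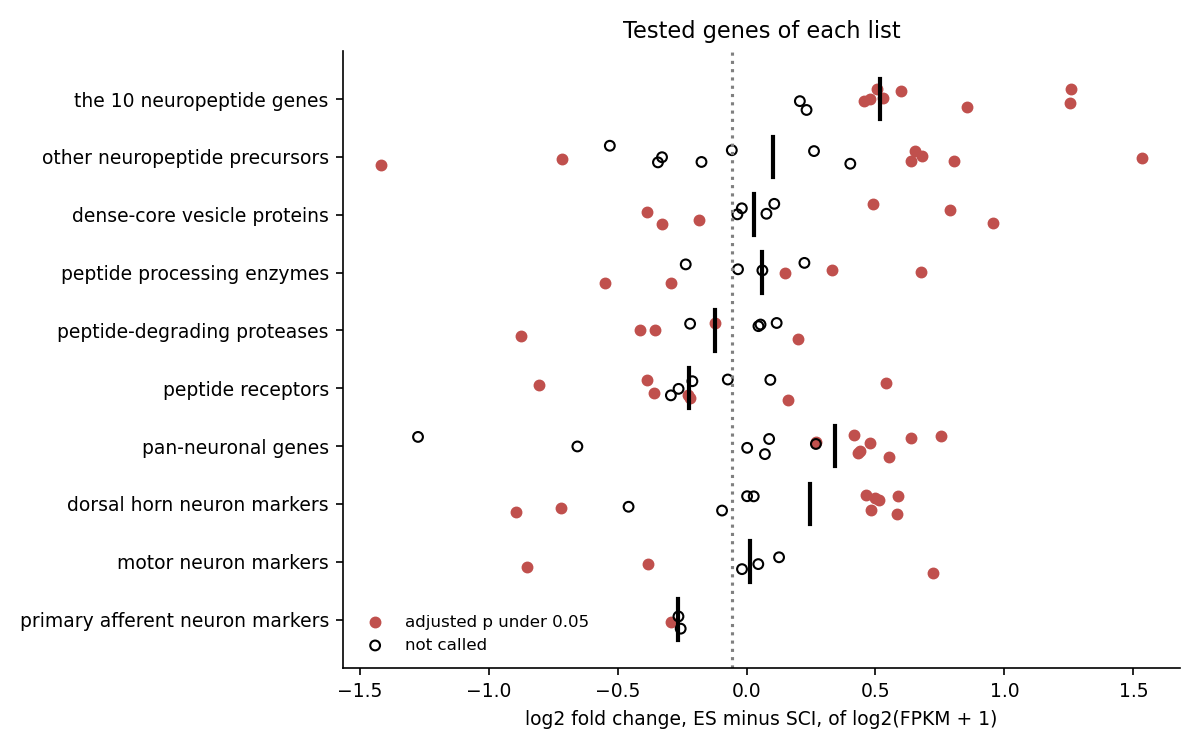
Log2 fold change of each tested gene of 10 lists on the log2(FPKM + 1) scale, ES minus SCI, with the list median as a black bar and the median of all genes as a dotted line. Red points passed at an adjusted p under 0.05. The 10 neuropeptide genes have a median of 0.52, and the receptor list one of -0.22.

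Among dense-core vesicle genes Vgf, Chgb and Chga rose, and Ptprn, Ptprn2 and Scg3 fell. Of 10 tested, 3 were higher and 3 lower (median 0.03), beside 17.4% and 27.6% of all genes. Vgf, which encodes a peptide precursor of these vesicles, stood at 23.5 ± 0.450 FPKM in ES and 11.7 ± 0.760 FPKM in SCI, 2.02-fold (adjusted p = 2.84e-05). Chgb, a chromogranin gene, stood at 18.2 ± 0.740 FPKM in ES and 10.1 ± 0.630 FPKM in SCI (adjusted p = 8.41e-05). Chga, its relative, stood at 13.9 ± 0.506 FPKM in ES and 9.60 ± 0.291 FPKM in SCI, and lost its call when centred on the pan-neuronal genes (adjusted p = 0.113). Ptprn and Ptprn2, which encode vesicle membrane proteins, and Scg3, a granin-binding protein gene, fell with log2 fold changes of -0.33, -0.39 and -0.18, Scg3 losing its call after median centring.

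Processing enzyme genes were likewise divided, 3 of 9 higher and 2 lower, beside 17.4% and 27.6% of all genes, with a median of 0.06. After median centring 5 were higher and 1 lower, and centred on the pan-neuronal genes 1 was higher and 4 lower. Of all 15750 genes tested 4021 were called higher and 2975 lower after median centring. Centred on the pan-neuronal genes 7827 were called lower, and 6.05% of all called genes were higher. Scg5, which encodes the chaperone of the prohormone convertase PC2, stood at 36.2 ± 0.429 FPKM in ES and 22.3 ± 0.986 FPKM in SCI, 1.62-fold (adjusted p = 3.62e-05). Pam, the enzyme that amidates the ends of peptides such as CGRP, substance P and NPY, stood at 33.5 ± 0.358 FPKM in ES and 49.5 ± 0.865 FPKM in SCI (log2 fold change -0.55, adjusted p = 2.12e-05). Cpe, carboxypeptidase E, was 1.11-fold higher, but not called under quantile normalization or equal totals and of opposite sign when centred on the pan-neuronal genes. Pcsk1, the convertase PC1/3, was 1.41-fold higher and Pcsk1n, the gene of its inhibitor, 0.807-fold. Pcsk1 lost its call without 1 of 4 libraries, with the replicate block (adjusted p = 0.0727) and when centred on the pan-neuronal genes (log2 fold change 0.056, adjusted p = 0.782), and Pcsk1n without 1 of 5 libraries and after median centring.

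Among 9 tested peptide-degrading protease genes 1 was called higher and 4 lower (median -0.12), beside 17.4% and 27.6% of all genes. After median centring 2 were higher and 2 lower, beside 4021 higher and 2975 lower of all 15750 genes tested. Centred on the pan-neuronal genes none was higher and 5 lower, beside 7827 of all genes called lower. On that scale 6.05% of all called genes were higher. Mme encodes neprilysin, which cleaves enkephalins and substance P. It had 0.904, 0.684 and 0.789 FPKM in ES replicates 1 to 3, against 2.87, 1.48 and 2.70 FPKM in SCI replicates 1 to 3. Every ES library was below every SCI library (log2 fold change -0.88, adjusted p = 0.00795). Ece2 stood at 5.44 ± 0.401 FPKM in ES and 7.58 ± 0.510 FPKM in SCI (adjusted p = 0.00379). Npepps, a cytosolic aminopeptidase gene, was 1.16-fold higher, but of opposite sign when centred on the pan-neuronal genes. After median centring Ece1 and Dpp4 lost their call as lower, and Anpep, aminopeptidase N, was called higher (log2 fold change 0.15, adjusted p = 0.00755).

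Receptor genes moved in both directions. Of the 26 receptor genes found, 12 were tested, 2 rose and 5 fell, beside 17.4% and 27.6% of all genes. The receptor median was -0.22. After median centring 2 rose and 3 fell, beside 4021 higher and 2975 lower of all 15750 genes tested. Centred on the pan-neuronal genes none rose and 8 fell, beside 7827 of all genes called lower. On that scale 6.05% of all called genes were higher. Adcyap1r1, the PACAP receptor gene, had 13.8, 13.6 and 13.9 FPKM in ES replicates 1 to 3, against 24.0, 24.8 and 25.8 FPKM in SCI replicates 1 to 3. The groups were far apart (log2 fold change -0.80, adjusted p = 1.81e-05). Ntsr2, a neurotensin receptor gene expressed by astrocytes, stood at 51.9 ± 1.34 FPKM in ES and 66.9 ± 5.08 FPKM in SCI (log2 fold change -0.36, adjusted p = 0.00246). Astrocyte markers were lower in the same libraries, 7 of 8 tested, with sums of 3949 to 4065 FPKM in ES and 5508 to 5601 FPKM in SCI, and their part in the Ntsr2 and Adcyap1r1 values was not tested. Vipr2, a receptor gene for VIP and PACAP, stood at 2.57 ± 0.190 FPKM in ES and 1.46 ± 0.215 FPKM in SCI. Sort1, whose product also binds neurotensin, was 1.12-fold higher. Centred on the pan-neuronal genes both lost their call and Sort1 turned negative.

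The CGRP receptor is built from the products of Calcrl and Ramp1. Calcrl had 11.6, 18.7 and 15.1 FPKM in ES replicates 1 to 3, against 18.5, 18.8 and 18.1 FPKM in SCI replicates 1 to 3. ES replicate 2 was level with the SCI libraries, and the gene did not pass (adjusted p = 0.158). Ramp1, at 20.2 ± 0.725 FPKM in ES and 23.7 ± 3.05 FPKM in SCI, did not pass either (adjusted p = 0.0966). Centred on the pan-neuronal genes both were called lower (adjusted p = 0.0078 for Calcrl and 0.00758 for Ramp1), and Ramp1 also with equal totals (adjusted p = 0.0386). Ramp2 and Ramp3, whose products turn Calcrl into adrenomedullin receptors, fell (log2 fold changes -0.23 and -0.22), and Ramp2 lost its call after median centring. The kappa opioid receptor gene Oprk1, whose product dynorphins act on, had 0.457, 0.340 and 0.417 FPKM in ES replicates 1 to 3, against 0.964, 0.715 and 0.829 FPKM in SCI replicates 1 to 3. All ES libraries were lower (log2 fold change -0.38, adjusted p = 0.0205). Its call was lost under quantile normalization, after median centring and without 1 of 4 libraries, namely ES replicates 2 and 3 and SCI replicates 1 and 3.

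The other classical opioid and the tachykinin receptor genes lay below the filter. Oprm1, the mu receptor gene, was listed at 0 in all ES libraries and at up to 0.0436 FPKM in SCI, and Oprd1, the delta receptor gene, at up to 0.0466 FPKM in ES and 0 in SCI. Tacr1, the substance P receptor gene, had 0.855, 0.523 and 1.06 FPKM in ES replicates 1 to 3, against 0, 0.0533 and 0.228 FPKM in SCI replicates 1 to 3. Every ES library was above every SCI library, and with no filter on low values Tacr1 passed (log2 fold change 0.72, adjusted p = 0.00875). In the same fit Tacr2, the neurokinin A receptor gene, passed in the opposite direction (log2 fold change -0.47, adjusted p = 0.00626). It had 0.132, 0.227 and 0.239 FPKM in ES replicates 1 to 3, against 0.536, 0.823 and 0.642 FPKM in SCI replicates 1 to 3. Tacr3, the neurokinin B receptor gene, was higher (0.20, adjusted p = 0.0453). Npy1r, a receptor gene for NPY (log2 fold change -0.07, adjusted p = 0.673), and Oprl1, that of nociceptin (0.09, adjusted p = 0.498), did not pass.

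Of 12 tested transcription factor genes linked to peptide genes 3 were higher and 4 lower, beside 17.4% and 27.6% of all genes. Their median was -0.01. Fos, induced by activity, stood at 24.2 ± 1.18 FPKM in ES and 16.7 ± 1.17 FPKM in SCI (adjusted p = 0.000782), and lost its call when centred on the pan-neuronal genes (adjusted p = 0.132). Egr1 also rose (log2 fold change 0.42, adjusted p = 0.00179) and lost its call on that scale (adjusted p = 0.322). Jun fell, at 58.8 ± 1.43 FPKM in ES and 68.3 ± 1.19 FPKM in SCI (adjusted p = 0.00145). Fosb and Junb did not pass (log2 fold changes -0.21 and -0.06). Rest, a repressor of neuronal genes, stood at 3.60 ± 0.394 FPKM in ES and 5.44 ± 0.175 FPKM in SCI (adjusted p = 0.00289). Atf3, an injury-induced factor gene, fell with a log2 fold change of -0.32.

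Some neuronal markers were higher in the same libraries. Among the 14 pan-neuronal genes, 8 rose, none fell and 6 did not pass (median 0.34), and their summed level was 564 to 619 FPKM in ES and 484 to 494 FPKM in SCI. Eno2, which did not pass, had 34.7, 35.3 and 0.674 FPKM in ES replicates 1 to 3, against 31.1, 28.9 and 30.9 FPKM in SCI replicates 1 to 3. Among 12 tested dorsal horn neuron genes, 6 rose and 2 fell (median 0.25), with sums of 40.2 to 42.0 FPKM in ES and 34.8 to 36.2 FPKM in SCI. Over all genes tested 17.4% were called higher and 27.6% lower. Calb2, a calretinin gene of many excitatory dorsal horn neurons, was 1.58-fold higher and Gad2, which encodes a GABA-making enzyme, 1.81-fold, while Nmur2, a neuromedin U receptor gene, fell, at 0.686 ± 0.0908 FPKM in ES and 2.13 ± 0.128 FPKM in SCI. Centring each library on the median of the pan-neuronal genes, a scaling chosen after the values were seen, put the median over all genes at -0.33. On that scale 3 of the 10 peptide genes were called, and all 6 dorsal horn genes that rose lost their call. Over all 15750 genes tested 7827 were called lower on that scale. Of all called genes 6.05% were then higher in ES, against 38.8% without this centring, so the loss of higher calls was not particular to these lists. The part of overall neuronal content in the peptide values was not tested further.

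Most markers of afferent cell bodies were low. Of 10 such genes 7 lay below the filter, among them Scn10a at up to 0.0717 FPKM in ES and 0.0248 FPKM in SCI and Pou4f1 at up to 0.170 FPKM in ES and 0 in SCI, and Scn11a was listed at 0 in all libraries. P2rx3 had 0.454 to 0.720 FPKM in ES and 0.330 to 0.462 FPKM in SCI, and Trpv1, which passed the filter, 0.422 to 0.597 FPKM in ES and 0.731 to 0.992 FPKM in SCI. The list summed to 4.94 to 5.38 FPKM in ES and 6.30 to 6.42 FPKM in SCI, most of it Runx1 and Avil. Of its 3 tested genes none was called higher and Runx1 was called lower, beside 17.4% and 27.6% of all genes. The Runx1 call (adjusted p = 0.0461) was lost without a filter, under quantile normalization and after median centring. It was also lost without ES replicate 1, ES replicate 2 or any SCI replicate. Of 6 tested motor neuron genes Prph rose, and Chodl and Ret fell, beside the same 17.4% and 27.6% of all genes. The cholinergic genes Chat, Slc18a3 and Slc5a7 did not pass (log2 fold changes 0.13, -0.02 and 0.05). The motor neuron sums were 42.6 to 43.4 FPKM in ES and 36.9 to 40.4 FPKM in SCI. The higher ES sum rested on Prph, at 24.1 FPKM in ES and 14.3 FPKM in SCI. Ret stood at 9.55 FPKM in ES and 12.8 FPKM in SCI, and Chodl at 2.87 FPKM in ES and 5.94 FPKM in SCI.

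Markers of other cells differed between the groups as well, beside 17.4% of all genes called higher and 27.6% called lower. All 8 oligodendrocyte genes rose (sums 12824 to 12848 FPKM in ES and 8046 to 8122 FPKM in SCI), as did all 5 erythrocyte genes (2973 to 3188 FPKM in ES and 519 to 546 FPKM in SCI) and 6 of 8 microglia and macrophage genes (973 to 1031 FPKM in ES and 895 to 920 FPKM in SCI). All 7 meningeal and fibroblast genes fell (741 to 745 FPKM in ES and 1079 to 1135 FPKM in SCI), as did 5 of 8 Schwann cell genes (the list summed to 7835 to 7876 FPKM in ES and 6060 to 6207 FPKM in SCI), while Mbp, which is also in the oligodendrocyte list, Sox10 and Ngfr rose. Their part in the peptide values was not tested.

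The genes whose pattern over the 6 libraries was most like each called peptide gene were found by the root mean square distance of centred log2(FPKM + 1). The smallest was that of Rgs7 to Npy (0.0296). Slc32a1, the vesicular transporter of inhibitory neurons, was nearest to Calcb (0.0415), RT1-Bb to Pdyn (0.0377), Tmem108 to Penk (0.0825), Lyrm1 second nearest to Calca (0.0555), Pimreg nearest to Sst (0.0523) and Batf to Nts (0.0596). The nearest gene to Tac1 was 0.124 away. The difference between the groups enters every such distance over these 6 libraries.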

How the data were processed

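Poly(A) RNA of injured rat spinal cord was sequenced in 3 ES and 3 SCI libraries, as stranded paired-end reads per the labels' protocols. The authors deposited a gene table and a transcript table with FPKM per library, in which 0.0001 stands for 0 and was read as 0. Per the file headers these also hold a fold ratio, its log2, and p-values with q-values, all of them the authors' deposited values. The submitters' processing notes name HISAT and StringTie, with no version. The build, annotation and authors' test are not stated in those sources. Transcript lengths and exon numbers are other columns of the deposited transcript table.

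Differences were fitted over the whole tables with limma 3.58.1 in R 4.3.3 (linear model of log2(FPKM + 1), variance trend, two-sided), for features averaging 0.5 FPKM or more across all 6 libraries, with Benjamini-Hochberg adjustment over all features tested and calls at an adjusted p under 0.05. Transcript usage was tested with diffSplice. The scripts were tested on simulated data. Exact permutation tests compared transcript shares.

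Groups came from the treatment label. Read-pair numbers were estimated from steps in transcript FPKM times length. FPKM divides by all fragments of a library, so a few abundant transcripts that change shift every other gene, which the scaling alternatives address. The rule for named genes took all 10 members and their transcripts, up to 6 called genes by smallest p of each peptide-system list, a tested receptor of each member, up to 3 genes by smallest p of each marker and transcription factor list, and the 2 genes nearest in pattern to each called member. Others, such as Rest, Calb2, Gad2, Anpep, P2rx3, the tachykinin, mu and delta receptor genes and the cholinergic genes, were chosen after their values were seen. Members and lists were chosen with earlier results of these data known. Alternatives changed the pseudocount, the filter, the scaling, the variance model, the threshold, the replicate block and the libraries used. The genes Vipr1, Nms, Prrxl1 and Col1a2 of the lists were not analysed here.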

Additional observations from a re-analysis of the deposited data

How the results depend on the processing

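Penk and Pdyn were called higher in ES under all 20 alternatives, and Tac1 under all but the 2-fold minimum. Centring on the pan-neuronal genes, added after seeing the data, left 3 peptide genes called, with 6.05% of all called genes higher in ES. The log2 fold changes were then 0.20 for Calca, 0.23 for Calcb, 0.18 for Npy, 0.32 for Sst and 0.25 for Nts, none of them called, and it was -0.069 for Cck and -0.043 for Adcyap1. The cause was not tested. A 2-fold minimum left 424 genes, 599 transcripts, 2 peptide genes and 2 peptide transcripts, and without a filter 5 peptide transcripts were called. Leaving out 1 library gave 5907 to 6430 genes, 4713 to 5257 transcripts, 7 to 8 peptide genes and 4 to 8 peptide transcripts. The log2 fold change of Nts was then 0.43 to 0.64 and that of Cck 0.11 to 0.37, with the usage p of Calca from 0.0389 to 0.494. With the replicate number as a block 6317 genes and 8 peptide genes were called, 4543 transcripts and 7 peptide transcripts, and the usage p was 0.123 for Calca and 0.824 for Tac1. Deviations of libraries with the same number correlated at -0.0264, -0.0261 and -0.0292, and those with unlike numbers at -0.0533 to 0.0796. Deviations from the mean of only 3 libraries are tied to each other, so these values cannot show whether the libraries were paired. Estimated read pairs were fewest for Nts, at 49 to 97 per library.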
